A study of Mus musculus with 15 samples.

Results

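The cytosolic and mitochondrial heat shock proteins examined here are Hspa8, Hspa1a, Hspa1b, Hsph1, Dnajb1, Hsp90aa1, Hspb1, Cryab, Hspd1 and Hspe1. They were found by gene symbol, each matched 1 row of the deposited tables, and together they make up 10 of 56953 genes. The genes were listed with earlier results of these data known. Their transcripts were followed through 15 mouse libraries, 6 of muscle stem cells (MuSCs) and 9 of quadriceps femoris muscle.

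Heat shock proteins are chaperones, which bind unfolded protein and help it to fold, stay soluble or be degraded. HSP70 proteins (Hspa8, always present, and the inducible copies Hspa1a and Hspa1b) bind short hydrophobic stretches. The J-domain protein Dnajb1 stimulates their ATPase, and Hsph1 (HSP110) exchanges their nucleotide. HSP90 (Hsp90aa1) matures signalling proteins and, in muscle, myosin. The small heat shock proteins Hspb1 and Cryab hold unfolding protein without ATP, and both bind filaments and Z-discs of muscle fibres. Hspd1 (HSP60) and its lid Hspe1 (HSP10) form the folding chamber of the mitochondrial matrix. Many of these genes are induced by heat shock factor 1, which binds heat shock elements, arrays of the unit GAA and its reverse complement TTC spaced by NN, where N is any base.

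The study asked how returning a mouse's own MuSCs affected its remaining MuSCs and hindlimb muscle. All mice were of strain 129 and wild type, and the labels give them as males aged 10 weeks. The protocol text counts 10 mice, and the libraries carry 9 mouse numbers. MuSCs came from biopsies of mice 5, 6 and 11, with 3 libraries before transplantation and 3 after it. Quadriceps came from 6 transplanted mice (4, 14, 94, 5, 6 and 11) and 3 sham-operated mice (3, 192 and 12). A library is called by its group and mouse number below, for example after 5 or sham 12. The muscle libraries stood in a table with 2 shams (transplanted 4, 14 and 94, sham 3 and 192) and a table with 1 sham (transplanted 5, 6 and 11, sham 12). The labels give neither the interval after transplantation nor how MuSCs were purified or cultured.

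Library totals were 17.09 to 22.98 M (mega) estimated counts, with 17873 to 20284 genes detected. The short descriptions of 3 MuSC libraries (after 5, before 5 and before 11) begin with the mouse number, and 19747 to 19900 genes were detected in them. Those of the other 3 (after 6, after 11 and before 6) begin with a letter, and 17873 to 18369 genes were detected. Mitochondrially encoded transcripts took 1.20% of counts in after 11 and 4.44% to 6.28% in the other MuSC libraries. Against the label of male, Xist exceeded 1 TPM in 14 of 15 libraries and the summed Y-linked genes in 0. The library in which Xist did not was transplanted 4, at 0.01 TPM. MuSC libraries carried the stem cell marker Pax7 at 17.8 ± 3.72 TPM before and 15.2 ± 3.08 TPM after transplantation (SD, n = 3 each), against 0.227 ± 0.0493 TPM in sham muscle. Myod1, of the same marker list, stood higher, at 758 ± 197 TPM before, 793 ± 228 TPM after and 15.9 ± 3.49 TPM in sham muscle. Calcr, also of that list, was at 0 in all libraries after transplantation. Before transplantation it was not at 0 in every library, but it lay below sham muscle, as given below. In each MuSC group 2 of the 10 markers of that list stayed under 1 TPM. The leukocyte marker Ptprc was listed at 0 in every MuSC library. The fibroadipogenic markers summed to 56.3 TPM in after 5 and 3.60 to 8.79 TPM in the other MuSC libraries. The adipocyte markers summed to 194 to 209 TPM before, and to 786, 619 and 40.8 TPM in after 5, 6 and 11. In each MuSC group 6 of the 7 adipocyte markers stayed under 1 TPM. The myofibre markers summed to 982 to 12426 TPM in MuSC libraries, against at least 106060 TPM in muscle.

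Promoters are shown first for 5 members whose values are compared below. RefSeq promoter windows (GRCm38.p6, 250 bases before to 50 after the start) were found for 7 of 10 members, and Cryab, Hspa8 and Hsp90aa1 are named only. Windows were searched on both strands for 2 units, GAANNTTC or TTCNNGAA, and for 3 units, the same array with a further GAA or TTC after NN, so that every 3-unit match also holds a 2-unit match. Hspa1a and Hspa1b are given because they are near-identical copies, and Hspb1 because its tissue difference was the largest among the members with a window. The lines show the 160 bases before the start, with 2-unit matches in capitals.
Hspa1a (chr17:34972157-34972316, minus strand): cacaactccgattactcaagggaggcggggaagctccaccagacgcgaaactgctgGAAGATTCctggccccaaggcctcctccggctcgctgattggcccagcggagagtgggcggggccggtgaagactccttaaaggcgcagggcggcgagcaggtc
Hspa1b (chr17:34959239-34959398, minus strand): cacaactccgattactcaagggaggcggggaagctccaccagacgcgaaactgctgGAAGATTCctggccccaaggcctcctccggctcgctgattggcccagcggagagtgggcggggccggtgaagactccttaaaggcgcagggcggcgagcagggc
Hspb1 (chr5:135887759-135887918, plus strand): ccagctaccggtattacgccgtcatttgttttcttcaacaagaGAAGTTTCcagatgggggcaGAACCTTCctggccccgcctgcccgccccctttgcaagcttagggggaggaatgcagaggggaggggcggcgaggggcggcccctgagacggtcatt
The lines of Hspa1a and Hspa1b were identical at 159 of 160 bases, and the whole 250 bases before the start at 247. In both genes the match begins 104 bases before the start. Hspb1 has 2 matches, beginning 117 and 97 bases before the start.

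Hspd1 and Hspe1 lie head to head on chromosome 1, and in the deposited annotation their starts are 111 bp apart and the genes overlap. They share 1 array of 4 units, given in 30 bases because it lies before a start of each gene, with the array in capitals.
Hspe1 (chr1:55088053-55088082, plus strand): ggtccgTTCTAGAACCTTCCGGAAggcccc
Hspd1 (chr1:55088053-55088082, minus strand): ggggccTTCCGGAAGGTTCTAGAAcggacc
The array begins 89 bases before the Hspe1 start and 144 bases before 1 of 2 annotated Hspd1 starts, and the other Hspd1 start lies on its far side. Hsph1 also has a 3-unit match, 15 or 36 bases after its start, depending on which of 2 annotated starts is used. Dnajb1 has a match of neither kind in its 2 windows. Of all 32851 windows, 0.603% hold 3 units and 15.1% hold 2, and of the members' 10 windows, which cover 7 genes, 4 hold 3 units and 7 hold 2. A match is a run of letters and says nothing of binding in these cells.

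Levels are compared between genes in TPM, transcript counts corrected for gene length and scaled to a common library total. In MuSCs before transplantation the 10 transcripts summed to 6209 ± 818 TPM (n = 3), and in sham muscle to 2087 ± 99.97 TPM (n = 3). After transplantation the sums were 5107 ± 1263 TPM in MuSCs (n = 3) and 2132 ± 409 TPM in muscle (n = 6). The mRNA of these 10 genes together was therefore a larger share of the MuSC libraries than of the muscle libraries in each of these pairs of groups. Values set across the deposited tables were not rescaled between them.

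Cryab and Hspa8 led in every group. Cryab had 1827 ± 813 TPM in MuSCs before, 1365 ± 342 after, 970.0 ± 72.3 in sham and 1045 ± 276 in transplanted muscle. Hspa8 had 1736 ± 399 TPM in MuSCs before, 1661 ± 492 after, 605 ± 90.2 in sham and 586 ± 96.6 in transplanted muscle. The ranges of Cryab and Hspa8 overlapped in both MuSC groups and in transplanted muscle, and in sham muscle Cryab was above Hspa8 in all 3 libraries.

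Hspb1 came next in every group, at 1053 ± 472 TPM in MuSCs before and 156 ± 15.5 TPM in sham muscle. Of the mitochondrial pair, Hspe1 stood at 581 ± 57.5 TPM and Hspd1 at 439 ± 176 TPM in MuSCs before, with 124 ± 19.1 and 138 ± 11.8 TPM in sham muscle. Hsp90aa1 had 443 ± 221 TPM in MuSCs before and 32.2 ± 6.73 TPM in sham muscle. Among MuSCs before, neighbours in the order from Cryab through Hspa8, Hspb1, Hspe1, Hsp90aa1 and Hspd1 overlapped, so this order is not resolved. In sham muscle Hspb1, Hspd1 and Hspe1 overlapped in the same way, and Hsp90aa1 lay below Hsph1 in all 3 libraries.

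Hsph1 had 94.9 ± 39.2 TPM in MuSCs before and 50.2 ± 4.12 TPM in sham muscle, and Dnajb1 had 22.8 ± 1.61 and 3.67 ± 1.43 TPM. The inducible copies were lowest in MuSCs, Hspa1b at 8.90 ± 4.88 TPM and Hspa1a at 3.89 ± 2.06 TPM before transplantation. In sham muscle Hspa1a (3.86 ± 2.20 TPM), Dnajb1 and Hspa1b (3.64 ± 2.16 TPM) overlapped at the bottom of the order. Hspa8 TPM was 102 to 341 times the sum of Hspa1a and Hspa1b in MuSC libraries, and 35.4 to 207 times in muscle libraries, as a ratio of levels. The constitutive HSP70 transcript thus outnumbered the inducible ones in all 15 libraries.

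**Figure D1:**
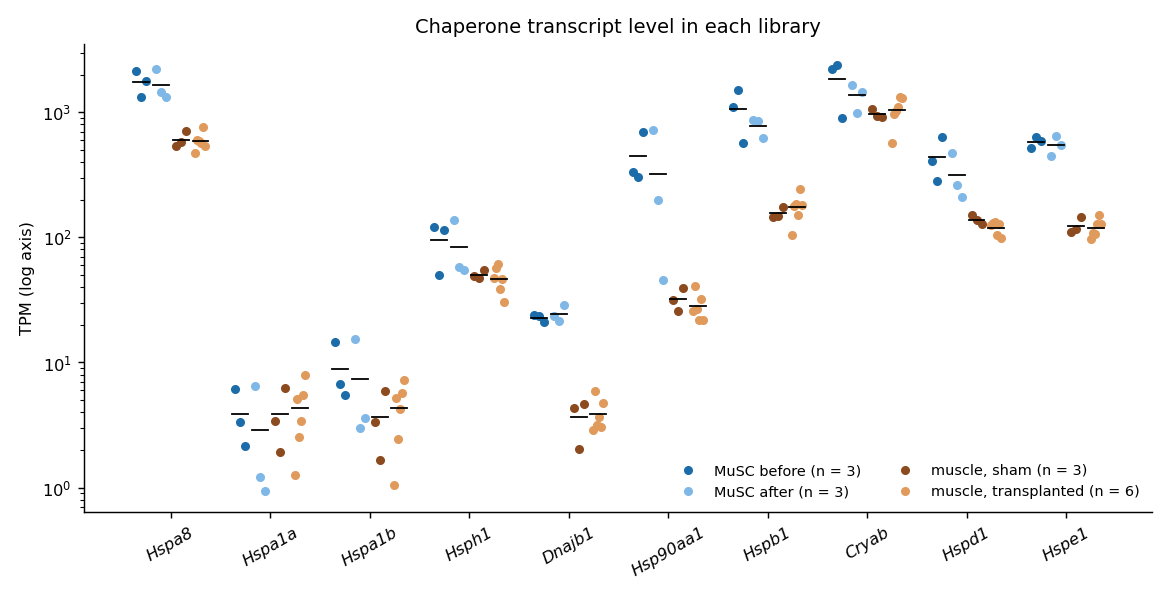
Level of each chaperone transcript in TPM on a log axis, 1 point per library, coloured by group, with a line at each group mean. Cryab and Hspa8 lie highest and the Hspa1 copies at or near the bottom in all groups, and the 6 MuSC libraries lie above the 9 muscle libraries for Hspb1, Hspd1, Hspe1, Hsp90aa1, Hspa8 and Dnajb1.

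The first comparison set MuSCs before transplantation against sham quadriceps, 3 libraries each. Hsp90aa1, Hspb1, Dnajb1, Hspe1, Hspd1 and Hspa8 were higher in MuSCs at an adjusted p under 0.05 in edgeR's quasi-likelihood test, so 6 of 10 members passed, all higher. Of 14548 genes tested, 68.5% passed, 35.1% higher and 33.4% lower in MuSCs, and the groups did not overlap for 74.3%, against 6 of 10 members. The share of members passing is thus near that of all genes, whereas their median log2 difference was 0.85 against 0.02 over all genes. Tissue and deposited table cannot be told apart here. In bulk RNA, fewer cells of a type and less RNA per cell cannot be told apart either.

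Hsp90aa1, the inducible-type HSP90, had 539, 601 and 1182 CPM (counts scaled to a common total, with TMM factors over these 6 libraries) in before 5, 6 and 11. The shams 3, 192 and 12 had 108, 80.4 and 93.2 CPM. Every MuSC library was above every sham, and Hsp90aa1 was 8.25-fold higher (log2 difference 3.05, SE 0.34, adjusted p = 6.36e-05). Its paralogue Hsp90ab1, the constitutive HSP90, had a log2 difference of 0.49 (SE 0.25) and did not pass (adjusted p = 0.110). Hsp90ab1 passed with DESeq2 (0.47, adjusted p = 0.0458), with library totals (1.26, adjusted p = 0.00147) and between the groups after transplantation (0.86, adjusted p = 0.00860), higher in MuSCs each time.

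Dnajb1 had 37.7, 55.2 and 34.5 CPM in before 5, 6 and 11, and 14.3, 6.12 and 13.4 CPM in sham 3, 192 and 12. The groups did not overlap, and the co-chaperone was 3.76-fold higher in MuSCs (log2 difference 1.91, SE 0.34, adjusted p = 0.000949). Hspa8 had 2309, 2220 and 2100 CPM before and 1282, 1238 and 1479 CPM in the shams in the same order. It was 1.66-fold higher (log2 difference 0.73, SE 0.24, adjusted p = 0.0221), without overlap. This call was lost when before 5, sham 3 or sham 192 was left out, with adjusted p values of 0.0864, 0.0847 and 0.103.

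The other HSP70-side members did not pass. Hsph1 had 188, 116 and 186 CPM in before 5, 6 and 11 and 131, 149 and 139 CPM in sham 3, 192 and 12, and before 6 lay below all 3 shams (log2 difference 0.22, SE 0.22). Hspa1a had a log2 difference of -0.73 (SE 0.47) and Hspa1b one of 0.52 (SE 0.46), and with their counts summed the difference was -0.01 (SE 0.45). The division of reads between these near-identical copies is uncertain, and the difference of the sum was smaller than its error.

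Hspb1 had 414, 850 and 224 CPM in before 5, 6 and 11, and 108, 102 and 117 CPM in sham 3, 192 and 12. All MuSC libraries were above all shams, and Hspb1 was 4.54-fold higher (log2 difference 2.18, SE 0.43, adjusted p = 0.00172). Cryab had 754, 1206 and 321 CPM before, and 701, 574 and 561 CPM in the shams. Before 11 lay below all 3 shams and the other MuSC libraries above them, and Cryab did not pass (log2 difference 0.31, SE 0.42, adjusted p = 0.522). Without before 6 Hsph1 passed (adjusted p = 0.0497), and without before 11 Cryab passed (log2 difference 0.68, adjusted p = 0.0482), both higher in MuSCs. As a ratio of levels, Cryab TPM was 1.17 to 2.36 times Hspb1 TPM in the 6 MuSC libraries and 5.31 to 7.26 times in the 9 muscle libraries.

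Both parts of the mitochondrial chamber were higher in MuSCs. Hspe1 had 158, 289 and 191 CPM in before 5, 6 and 11 and 64.8, 63.3 and 79.0 CPM in sham 3, 192 and 12, a 3.08-fold difference (log2 1.62, SE 0.25, adjusted p = 0.000440). Hspd1 had 490, 513 and 801 CPM before and 347, 297 and 274 CPM in the shams, a 1.96-fold difference (log2 0.97, SE 0.25, adjusted p = 0.00765). The groups overlapped for neither gene.

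When MuSCs after transplantation were set against transplanted muscle, the same 6 members passed, all higher in MuSCs, where 70.4% of 15066 genes passed and 36.4% were higher. Their log2 differences there were 2.59 for Hsp90aa1, 2.02 for Dnajb1, 1.67 for Hspe1, 1.54 for Hspb1, 0.74 for Hspd1 and 0.72 for Hspa8. Hspa1a had -1.56 and missed the threshold (adjusted p = 0.0510), Cryab had -0.25, Hspa1b -0.16 and Hsph1 0.15. Mice 5, 6 and 11 gave a library to both of these groups. In those 6 libraries alone, with the mouse number as a replicate block, Hsp90aa1 (2.12, adjusted p = 0.0498), Dnajb1 (1.91, adjusted p = 0.00331), Hspe1 (1.29, adjusted p = 0.0221) and Hspb1 (1.27, adjusted p = 0.0196) were higher in MuSCs and Hspa1a was lower (-2.26, adjusted p = 0.0315). Its copy Hspa1b did not pass there (-0.83, adjusted p = 0.236). The division of reads between the copies is uncertain, and their summed counts were not tested in these libraries. Hspd1 (0.73, adjusted p = 0.141) and Hspa8 (0.55, adjusted p = 0.374) did not pass there. Without the block the same 6 libraries gave Hspd1 a call (0.74, adjusted p = 0.0373) and Hspa8 none (0.54, adjusted p = 0.160), so that Hspa8 missed the threshold in these libraries with and without the block. With library totals in place of TMM, the median over all genes moved to 0.79, the calls over all genes split into 7448 higher and 3174 lower in place of 5113 and 4857, and 9 of 10 members passed, all higher. The 6 members above passed under both scalings, whereas Hsph1 (1.02), Cryab (1.05) and Hspa1b (1.29) passed with library totals and not with TMM.

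The markers of other cells moved with this comparison. Of 11 mature myofibre markers, 11 were lower in MuSCs, and all 6 endothelial, all 8 fibroadipogenic, all 7 adipocyte and 7 of 8 leukocyte markers were lower too. Not all lists went this way: of 7 slow fibre markers 2 were higher and 3 lower, and of 5 tenocyte markers 2 were higher and 3 lower. The slow fibre markers summed to 1029 to 2664 TPM in MuSCs before and 754 to 2437 TPM in sham muscle. Of 10 MuSC markers, 8 were higher and 1, Chodl, was lower. Calcr was left out by the count filter, and DESeq2 put it lower in MuSCs (log2 difference -4.32, adjusted p = 0.0403). Of 13 immediate early genes, which respond fast to handling stress, 2 were higher and 7 lower. The higher were Fosl1 (log2 difference 13.4, at 0 TPM in sham muscle) and Ier3 (1.62), and Fos was among the lower (-5.47). With library totals 4 of these 13 genes were higher and 3 lower, and between the groups after transplantation 6 were higher and 5 lower. Their part in the chaperone differences was not tested.

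**Figure D2:**
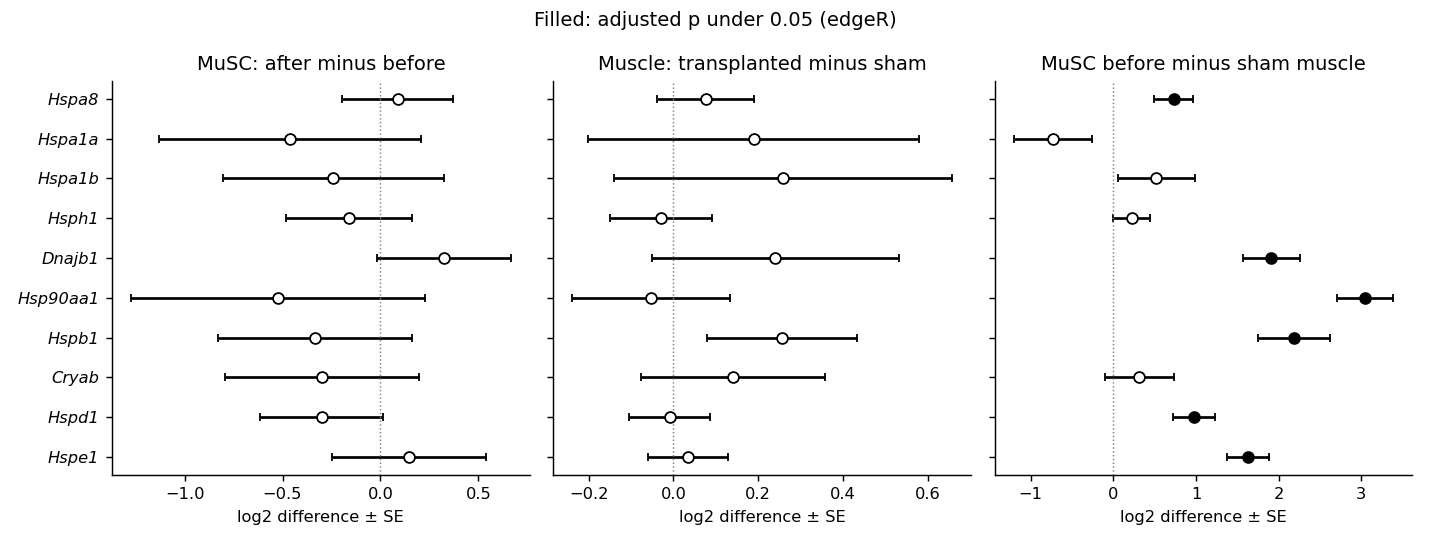
Log2 difference of each member with its standard error in the 3 comparisons, with a filled point where the adjusted p was under 0.05. Filled points appear only for MuSC before minus sham muscle, where Hsp90aa1 lies farthest to the right at 3.05, and the horizontal scales differ between panels.

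Other chaperones and co-chaperones were read from lists of 71 genes, of which 68 were tested. In MuSCs against sham muscle 47 of 68 passed, 25 higher and 22 lower, beside 68.5% of all genes, and their median log2 difference was 0.29. With library totals 50 passed, 40 higher and 10 lower.

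All 8 subunits of CCT, the cytosolic chaperonin that folds actin and tubulin, were higher in MuSCs under TMM, RLE, DESeq2 and library totals alike, with a median log2 difference of 1.08. Cct3 (1.81, SE 0.19) and Cct2 (1.70, SE 0.20) had the largest values. Of 10 other HSP70 and HSP110 genes 5 were higher, led by Hspa4l (1.68, SE 0.31) and Hspa14 (1.58, SE 0.19). The 2 that were lower were Hspa1l (-3.75, SE 0.26), an HSP70 known from testis, and Hspa12b (-2.50, SE 0.30), known from endothelium. In the HSP90 family, Hsp90b1 of the endoplasmic reticulum was higher (1.41, SE 0.28) and the mitochondrial Trap1 lower (-0.68, SE 0.17), though Trap1 changed sign with library totals.

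Of 6 other small heat shock proteins tested 1 was higher and 3 were lower in MuSCs, against 2 and 2 with library totals. Hspb6 was 29.2-fold lower in MuSCs (log2 -4.87, SE 0.31), with 21.5 ± 6.50 CPM before against 628 ± 126 CPM in sham muscle (n = 3 each). Hspb3 (-1.77, SE 0.37) and Hspb7 (-1.21, SE 0.37) were lower as well, Hspb7 losing its call with library totals. Hspb11 was higher (1.56, SE 0.36), but despite its symbol it encodes a subunit of intraflagellar transport. Hspb2, which shares its promoter region with Cryab in head-to-head orientation at 1029 bp between starts, had -0.08 (SE 0.40). Hspb8, which works with the co-chaperone Bag3, had 0.88 and did not pass (adjusted p = 0.0635), but passed with DESeq2 (adjusted p = 0.0373) and with library totals (1.62, adjusted p = 0.00272).

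Of 13 other J-domain genes 3 were higher and 9 lower, with a median of -0.76, and with library totals 3 were higher and 3 lower with a median of 0.02. Dnajb5 (-3.14, SE 0.20) and Dnaja4 (-2.07, SE 0.23) were lowest, and Dnajc5, of synaptic vesicles, had the largest positive value (0.74, SE 0.16). Among 18 co-chaperones of HSP70 and HSP90, 7 were higher and 4 lower, against 13 and 1 with library totals. The myosin chaperones split: Unc45b, the muscle form, was 55.7-fold lower in MuSCs (log2 -5.80, SE 0.42), and Unc45a, the general form, was 3.84-fold higher (1.94, SE 0.20). Stip1, which joins HSP70 to HSP90, was higher (0.91, SE 0.17), and Ptges3, the HSP90 co-chaperone p23, was higher too (1.16, SE 0.18). Of 7 genes of mitochondrial import and proteolysis 2 were lower, Clpx (-1.93, SE 0.22) and Timm44 (-0.59, SE 0.19), the latter with a change of sign with library totals, under which 4 of the 7 were higher and 1 lower. Of 3 heat shock factors tested, Hsf4 was lower (-3.38, SE 0.53), and Hsf1 (0.39, adjusted p = 0.0936) did not pass. Hsf1 passed with library totals (1.15, adjusted p = 0.000420) and between the groups after transplantation (0.72, adjusted p = 0.0190), higher in MuSCs both times.

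**Figure D3:**
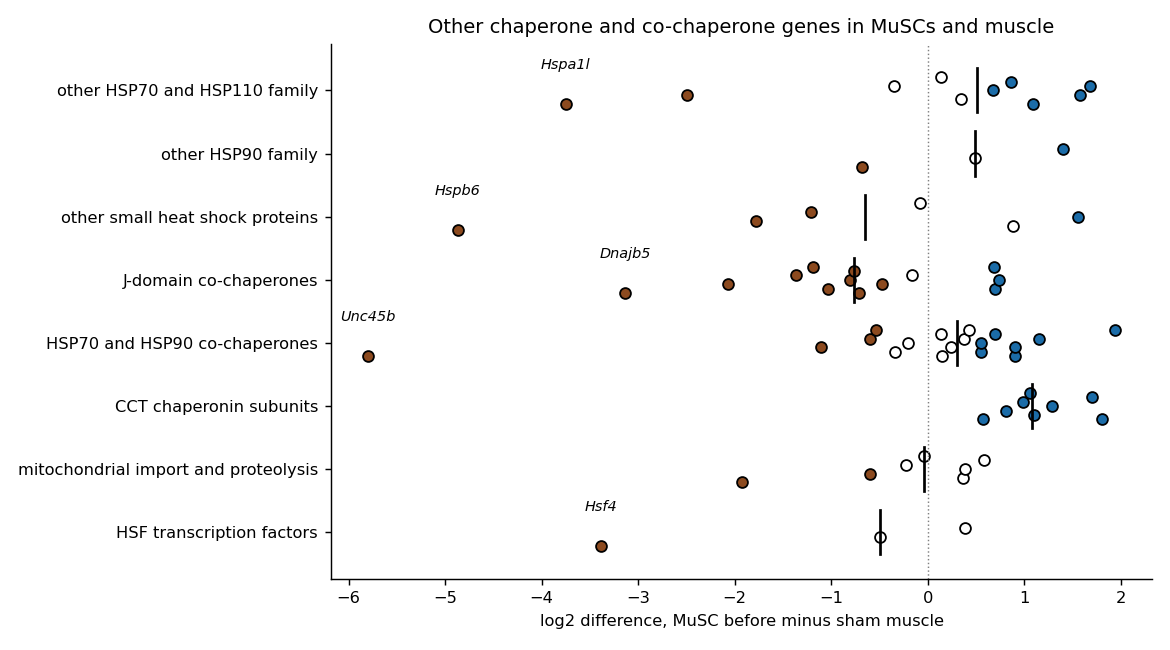
Log2 difference of each other chaperone gene between MuSCs before transplantation and sham muscle, by list, with blue for higher and brown for lower in MuSCs at an adjusted p under 0.05, white for not passing and a bar at the list median. All 8 CCT subunits are blue, and Unc45b (-5.80), Hspb6 (-4.87), Hspa1l (-3.75), Hsf4 (-3.38) and Dnajb5 (-3.14) lie farthest to the left.

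The study's first question concerns MuSCs after transplantation against before, 3 libraries each. No member passed the test, and none had groups that did not overlap. Of 13512 genes tested, 0% passed, 2.26% had an unadjusted p under 0.05 against 0 of 10 members, and 6.33% had groups that did not overlap. The members' median log2 difference was -0.27, with 3 of 10 above 0 against 51.4% of all genes. DESeq2 called 18 genes, none of them a member.

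Hsp90aa1 varied most. It had 681, 755 and 1474 CPM (TMM-scaled over the 6 MuSC libraries) in before 5, 6 and 11, and 1317, 571 and 136 CPM in after 5, 6 and 11. It was higher after transplantation in mouse 5 and lower in mice 6 and 11, and after 11 was the lowest of the 6 libraries. The log2 difference was -0.52 (SE 0.75, adjusted p = 0.873), and without after 11 it was -0.04. After 11 was also the library with the low mitochondrial share given above, and the part of that in Hsp90aa1 was not tested.

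Among the HSP70s, Hspa8 was steadiest, with 2916, 2787 and 2620 CPM before and 2846, 3067 and 2938 CPM after in mice 5, 6 and 11 (log2 difference 0.09, SE 0.28). The inducible copies had parallel values. Hspa1b had 26.8, 18.3 and 10.5 CPM before and 28.3, 8.46 and 10.3 CPM after, and Hspa1a had 12.1, 9.75 and 4.39 CPM before and 12.5, 3.62 and 2.92 CPM after. Mouse 5 was highest at both times for both copies, and their summed counts gave a log2 difference of -0.31 (SE 0.58, adjusted p = 0.883).

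Hsph1 had 237, 146 and 231 CPM before and 239, 162 and 149 CPM after (log2 difference -0.16, SE 0.32), and Dnajb1 had 47.7, 69.3 and 43.1 CPM before and 46.3, 64.0 and 89.99 CPM after (0.32, SE 0.34). Within mice 5 and 6 the largest shift of either gene was 0.15 on the log2 scale, and mouse 11 had lower Hsph1 and higher Dnajb1 after transplantation.

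The small heat shock proteins shared a pattern. Hspb1 had 523, 1068 and 280 CPM before and 407, 612 and 467 CPM after (log2 difference -0.33, SE 0.50). Cryab had 952, 1515 and 401 CPM before and 696, 646 and 989 CPM after (-0.30, SE 0.49). Both were lower after transplantation in mice 5 and 6 and higher in mouse 11. The myofibre markers summed to 3987 to 12426 TPM before and 982 to 7427 TPM after, 10 of 11 with a negative difference and none passing, and their part in the values of Hspb1 and Cryab was not tested.

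In the mitochondrial pair, Hspe1 had 200.04, 363 and 239 CPM before and 170, 380 and 337 CPM after (log2 difference 0.15, SE 0.40). Hspd1 had 619, 645 and 999 CPM before and 705, 620 and 514 CPM after (-0.30, SE 0.31). In mouse 11 Hspe1 was higher and Hspd1 lower after transplantation, although the genes lie head to head.

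These mouse 11 libraries also differ in how they are named, before 11 with the number first and after 11 with the letter first. With group in the model, the letter-first libraries had higher Hspb1 (0.91, SE 0.34), Hspe1 (0.90, SE 0.20) and Dnajb1 (0.67, SE 0.22) and lower Hsph1 (-0.65, SE 0.17) as log2 differences, at unadjusted p values of 0.0361, 0.00380, 0.0187 and 0.00840. None passed after adjustment (lowest adjusted p 0.0532, for Hspe1), nor did any gene (0%), although 5562 of 13512 genes and 4 of 10 members had an unadjusted p under 0.05. For Hspe1, Dnajb1 and Hsph1, 3 of 10 members, the 3 libraries of one naming style did not overlap the other 3, as for 56.8% of all genes. The Hspd1 to Hspe1 ratio of TPM levels was 0.384 to 0.445 in the letter-first and 0.783 to 1.06 in the number-first libraries. This split was examined after the data were seen, and what the naming stands for is not given in the labels.

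**Figure D4:**
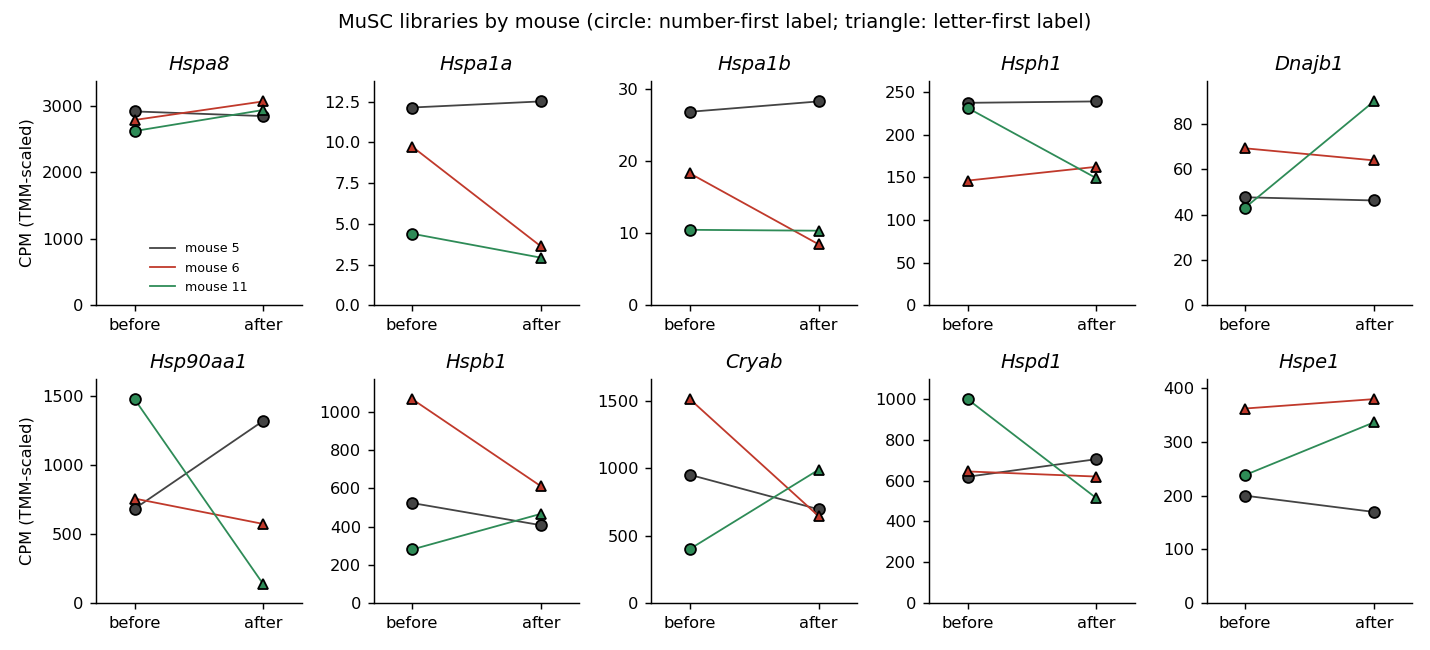
TMM-scaled CPM of each member in MuSCs before and after transplantation, with a line joining the libraries of each mouse, circles for number-first and triangles for letter-first labels. The lines run in different directions in different mice, and Hsp90aa1 goes from 1474 to 136 CPM in mouse 11 and from 681 to 1317 CPM in mouse 5.

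Other chaperones in MuSCs gave the same count, 0 of 68 passing and 0 with an unadjusted p under 0.05. The lowest p values of their lists belonged to genes such as the HSP90 immunophilin Fkbp4 (log2 difference 0.91, SE 0.47) and the small heat shock protein Hspb7 (-1.16, SE 0.66), both not passing. Of 12 immediate early genes tested 8 had a positive difference and none passed, with a median log2 difference of 0.68. For 3 of the 12 the unadjusted p was under 0.05, and for 3 the groups did not overlap, and their part in the members' values was not tested.

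The study's other question concerns quadriceps of transplanted against sham mice, 6 against 3 libraries, with the deposited table as a term. No member passed, and the groups overlapped for all 10. Of 14375 genes tested 0% passed, 7.08% had an unadjusted p under 0.05 against 0 of 10 members, and 2.11% had groups that did not overlap. The members' median log2 difference was 0.11, with 7 of 10 above 0 against 49.9% of all genes. DESeq2 called 17 genes, none of them a member.

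Hspb1 had 78.9, 75.2 and 83.4 CPM (TMM-scaled over the 9 muscle libraries) in sham 3, 192 and 12, and 59.6 to 148 CPM in transplanted muscle with a median of 94.4. The 3 shams lay within the transplanted range, and 5 of 6 transplanted libraries were above all of them (log2 difference 0.26, SE 0.18, adjusted p = 0.766). Cryab had 511, 422 and 399 CPM in the shams and 292 to 770 CPM, with a median of 536, in transplanted muscle (0.14, SE 0.22). In the 1-sham table all 3 transplanted libraries exceeded sham 12 for Cryab, and in the 2-sham table all 3 lay below sham 3 and 2 of them, transplanted 14 and 94, above sham 192.

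Hspa1a had 8.14, 4.19 and 12.7 CPM in sham 3, 192 and 12 and 3.07 to 22.3 CPM in transplanted muscle. Hspa1b had 7.45, 3.45 and 11.3 CPM in the shams and 2.42 to 19.0 CPM in transplanted muscle. Transplanted 4 was lowest and transplanted 11 highest of the 9 libraries for both copies, and their summed counts differed by 0.22 on the log2 scale (SE 0.39, adjusted p = 0.917). Transplanted 4, the library without Xist, was also lowest for Hspb1, Cryab and Hspa8 but not for the other members, and the part of that was not tested. Hspa8 had 935, 911 and 1051 CPM in the shams and 858 to 1409 CPM in transplanted muscle (0.08, SE 0.11). Hsph1 (-0.03, SE 0.12) and Dnajb1 (0.24, SE 0.29) did not differ beyond their errors either.

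Hsp90aa1 had 78.6, 59.2 and 66.2 CPM in the shams and 43.9 to 85.6 CPM in transplanted muscle (log2 difference -0.05, SE 0.19). Of the mitochondrial pair, Hspe1 had a log2 difference of 0.03 (SE 0.10) and Hspd1 one of -0.01 (SE 0.10). Hspd1 had 253, 219 and 195 CPM in the shams and 206 to 236 CPM in transplanted muscle, all 6 of which lay inside the sham range.

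More genes differed between the 2 muscle tables than between the groups, 2860 against 0. With group in the model, Hspe1 was higher in the 1-sham table (log2 difference 0.52, SE 0.09, adjusted p = 0.00329), with 56.1 to 73.1 CPM against 41.2 to 47.3 CPM and no overlap. Hspa1b (1.16, SE 0.37, adjusted p = 0.0459) and Hspa1a (1.12, SE 0.36, adjusted p = 0.0496) were higher there too, with 10.4 to 19.0 against 2.42 to 11.3 CPM for Hspa1b. These 3 of 10 members passed, all higher in the 1-sham table, where 19.9% of all genes passed and 8.05% were higher. This term was tested after the data were seen, and the labels do not say what the tables stand for. Table and naming style coincide in muscle: descriptions begin with the mouse number in the 2-sham table and with a letter in the 1-sham table. That letter is S in muscle and F in the letter-first MuSC libraries, and the labels do not link these styles. The letter-first MuSC libraries had a positive difference for Hspe1 (0.90) and negative ones for Hspa1a (-0.84) and Hspa1b (-0.81), none of them passing. The Hspd1 to Hspe1 ratio of TPM was 0.774 to 0.874 in the 1-sham and 1.17 to 1.37 in the 2-sham table.

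No cell type marker and no immediate early gene passed in edgeR in the muscle comparison, and DESeq2 called 1 immediate early gene, lower. All 11 mature myofibre and all 7 slow fibre markers had a positive difference. The slow fibre markers summed to 334 TPM in transplanted 4 and 4591 TPM in transplanted 11, the extremes of the muscle libraries. In TMM-scaled CPM Cryab was lowest and highest in the same libraries. In TPM it was also lowest in transplanted 4, but highest in transplanted 6 (1327 TPM, against 1292 TPM in transplanted 11). The slow fibre markers summed to 1813 TPM in transplanted 6. The 7 adipocyte markers were all lower in transplanted muscle by sign, 5 with an unadjusted p under 0.05, and their summed level was 696 to 1094 TPM against 954 to 1460 TPM in the shams. Of 12 immediate early genes 10 had a negative difference and 6 an unadjusted p under 0.05, Egr1 lying below the shams in all transplanted libraries (log2 difference -2.33, SE 0.42, adjusted p = 0.535). Their part in the members' values was not tested. Of 68 other chaperone genes none passed, and 51 had a positive difference. Dnajb5, a J-domain gene, had transplanted libraries above all shams (202 ± 2.65 CPM, n = 6, against 167 ± 9.03 CPM, n = 3) but did not pass (log2 difference 0.28, SE 0.08, adjusted p = 0.686).

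**Figure D5:**
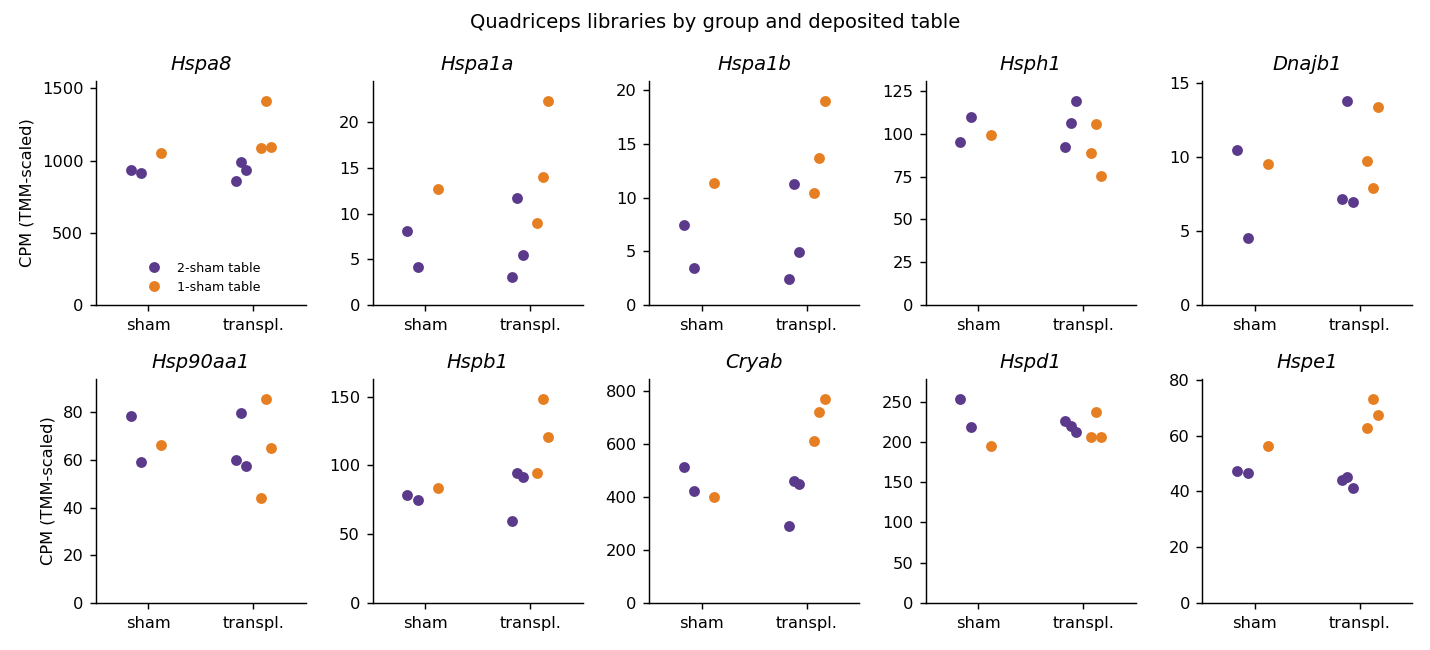
TMM-scaled CPM of each member in sham and transplanted quadriceps, 1 point per library, coloured by deposited table. Sham and transplanted points overlap for all 10 members, and the Hspe1 points of the 1-sham table (56.1 to 73.1 CPM) lie above those of the 2-sham table (41.2 to 47.3 CPM) in both groups.

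The division between Hspa1a and Hspa1b differed between the cells and the tissue. Hspa1b took 66.7% to 79.2% of their summed TPM in the 6 MuSC libraries and 45.4% to 55.4% in the 9 muscle libraries. No muscle library reached the MuSC range. The starts of the copies lie 12918 bp apart on the same strand of chromosome 17 in the deposited annotation, and reads from identical stretches cannot be assigned with certainty. The summed estimated counts behind these shares were 227 to 918 in MuSC and 118 to 885 in muscle libraries.

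Genes with the most similar profiles were sought for the member with the widest range in each tissue, by the root mean square difference of log2 CPM centred within each table. In muscle this was Hspa1b, with a range of 2.18 on the log2 scale over 9 libraries, and the nearest of 14375 genes was Hspa1a at 0.14, followed by Cfap100 (0.20), Mag (0.26), Espn (0.26) and G0s2 (0.26). The median gene lay at 0.65 from Hspa1b. In MuSCs it was Hsp90aa1, with a range of 3.43 over 6 libraries, and the nearest genes were Sh3bgrl (0.06), Pibf1 (0.10), Pms1 (0.11), Nexn (0.11) and Odr4 (0.12), against a median of 1.19 over all genes. Reads that the copies share can make the profiles of Hspa1a and Hspa1b alike. In MuSCs no chaperone was among the 5 nearest to Hsp90aa1. Hspa8 had the narrowest range in MuSCs (0.23) and Hspd1 in muscle (0.28).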

How the data were processed

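RNA was sequenced in bulk, with Trizol extraction and NEBNext Ultra RNA libraries per the labels' protocols. The authors deposited 3 tables with estimated counts and TPM (scaled for gene length and library total) per the file headers. The submitters' processing notes name GRCm38 and mm10. The aligner, quantifier and annotation release: not given in the sources used here. Only 1409 of 52029 shared genes had the coordinates of the GENCODE GRCm38 annotation, so the files' coordinates are not printed. A further 3 columns matched no sample and were not used. Deposited FPKM was not used. Groups came from titles, since the treatment label of the shams names transplantation.

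The estimated counts as deposited were rounded and tested with edgeR 4.0.16 (R 4.3.3): filterByExpr (minimum count 10), TMM, quasi-likelihood, 2-sided, Benjamini-Hochberg over all genes tested, threshold 0.05. CPM are TMM-scaled within a comparison. A standard error is the log2 difference over the root of F. DESeq2 1.42.0, other scalings, no filter, a mouse block, naming or table terms and omitted libraries were alternatives. Tests were checked on simulated counts. No pair of libraries within a group and table agreed within sampling noise. P-values measure the spread between these libraries, and counting error alone understates it.

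MuSC libraries carry mouse numbers 5, 6 and 11 in both groups and the labels call the transplant autologous, so the numbers pair them, and the same numbers tie MuSCs after to 3 transplanted muscle libraries. Deviations from group means correlated at 0.30, 0.36 and -0.40 for these mice, and at -0.68 to 0.55 between different mice. The highest were after 11 with before 6 (0.55) and after 5 with before 11 (0.49), different mice with the same naming style. Members, gene lists and alternatives were chosen with earlier results of these data known. Named genes were all members, up to 3 passing genes per direction of each list (otherwise the gene with the lowest p), and the 5 genes nearest the member with the widest range in each tissue. Some genes that this rule gives were left out of the text. For MuSCs before against sham muscle they were Hspa4, Cct7, Dnajb11 and Dnaja1, higher in MuSCs, and Dnajb2, Sugt1 and Pdcd5, lower. Hspb2, Hspb8, Hsp90ab1, Hsf1, Fos, Fosl1, Ier3 and Egr1 were named apart from this rule, after their values were seen.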

Additional observations from a re-analysis of the deposited data

How the results depend on the processing

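Every setting left 0 members passing in MuSCs after against before and in transplanted against sham muscle, and 5 to 7 members passing (9 with library totals) in MuSCs before against sham muscle. Values below are log2 differences, and the cause of each change was not tested.

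In MuSCs after against before, DESeq2 called 18 genes and the number-first libraries alone 43. Library totals turned Hspa8 to -0.028. A naming term turned Hsph1 to 0.060 and Hspe1 to -0.19. The number-first libraries alone gave 0.60 for Hspa1a, 0.61 for Hspa1b and for their sum, 0.030 for Hspb1, 0.050 for Cryab, 0.30 for Hsp90aa1, 0.039 for Hsph1 and -0.36 for Hspe1. The letter-first alone gave 0.086 for Hsph1 and -0.023 for Hspe1. Omitting 1 library at a time gave -1.12 to 0.019 for the summed Hspa1 copies, -0.99 to 0.11 for Hspa1b, -0.68 to 0.20 for Cryab, -0.69 to 0.31 for Hspb1 and -0.074 to 0.44 for Hspe1. With the mouse number as a replicate block, 0 genes and 0 members passed, 214 genes had an unadjusted p under 0.05, and the members' median was -0.15. The block changed no member's call. Naming styles and the 1-sham table taken alone leave 1 library in a group, which is assumed to vary like the others.

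In muscle, the genes called were 17 with DESeq2, 12 without a filter, 1 in the 2-sham table alone, 41 in the 1-sham table alone and 0 to 4 with 1 library omitted (2 without transplanted 94, 4 without sham 192). Library totals turned Hspa8 to -0.030 and Hspe1 to -0.073. The 2-sham table alone gave -0.23 for Cryab, 0.038 for Hsph1 and -0.11 for Hspe1, and the 1-sham table alone 0.16 for Hspd1. Omitting 1 library gave -0.17 to 0.51 for the summed copies, -0.17 to 0.45 for Hspa1a, -0.15 to 0.56 for Hspa1b, -0.22 to 0.33 for Cryab, -0.022 to 0.53 for Dnajb1, -0.15 to 0.061 for Hsp90aa1, -0.10 to 0.077 for Hspd1, -0.11 to 0.084 for Hspe1 and -0.10 to 0.042 for Hsph1.

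In MuSCs before against sham muscle, library totals turned Hspa1a to 0.035 and the summed copies to 0.76, and no filter turned the sum to 0.068. The groups after transplantation gave -0.16 for Hspa1b and -0.25 for Cryab. In the libraries of mice 5, 6 and 11 alone, MuSCs after against transplanted muscle gave -0.63 for Hspa1b and -0.61 for Cryab, and -0.83 and -0.63 with the mouse number as a replicate block. The block, added after seeing the data, ended the call of Hspd1 (0.73) and changed no other member's call, with 5 members passing against 6 without it and 7615 genes against 8435. Omitting 1 library gave -0.38 to 0.45 for the sum and -0.21 to 0.68 for Cryab. Transplanted against sham muscle and MuSCs before against sham muscle share no mouse number and could not be paired. With 3 libraries in the smaller group, differences as small as most members' standard errors could not be resolved. Differences several times their standard error missed the threshold too, as for Egr1 and Dnajb5 in transplanted against sham muscle. A gene that did not pass is therefore not shown to be unchanged.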
